A study of Mus musculus with 6 samples.

Results

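The RAF, MEK and ERK kinase genes described here are *Araf*, *Braf*, *Ksr1*, *Map2k1*, *Map2k2* and *Mapk3*, 6 of the 12134 genes listed in the total RNA tables. They were chosen by name from the RAS to ERK signalling chain, with earlier results on their introns and transcripts in these same samples known. The comparison of knockdown with control is therefore given for them as a description, and no p-value is printed for it. The 6 genes had 48 of the 85015 introns listed in any library, 42 of the 68322 listed in all 4 total RNA libraries and 36 of the 63309 that could be tested, and 30 of the 54718 transcripts with a long read. The samples were E14 mouse embryonic stem cells on a 129/Ola background, grown with serum and LIF (leukemia inhibitory factor). Cells were transfected with an siRNA against *Son*, a nuclear splicing protein, or with a control siRNA, both with Lipofectamine 2000. Transfection was 24 hours after seeding and RNA was taken 24 hours later. Short reads came from total RNA freed of ribosomal RNA, with 2 samples per siRNA. Nanopore long reads came from cDNA of polyadenylated RNA, with 1 sample per siRNA according to the sample titles.

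In this pathway active RAS recruits RAF kinases to the membrane, RAF phosphorylates the MEK kinases, and MEK phosphorylates ERK, which then acts on transcription factors and other kinases. ARAF and BRAF are RAF kinases, KSR1 is a scaffold related to RAF that holds RAF and MEK together, the products of *Map2k1* and *Map2k2* are MEK1 and MEK2, and *Mapk3* codes for ERK1. In mouse embryonic stem cells FGF4 acting through ERK favours the exit from the naive pluripotent state.

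Depth was similar in both groups: 5′ junctions had 16012286 and 10640247 split reads in the controls against 14978479 and 10556187 in the knockdown. The target *Son* had 4376 and 3251 spliced reads in the controls, against 1380 and 1061 in the knockdown. Of 12 embryonic stem cell markers, 11 were listed, and their summed level was 4900 to 5190 CPM (spliced reads on the counts-per-million scale of the library) in the 4 libraries. *Sox2* was not listed. Only reads at introns were counted, so a gene without introns cannot be listed, whatever its level. The numbers of listed markers are therefore not numbers of expressed ones. Markers of feeder fibroblasts summed to 1.16 to 2.19 CPM with 1 of 6 listed, those of endoderm to 2.9 to 3.84 CPM with 2 of 6, those of trophoblast to 31.5 to 42.2 CPM with 3 of 6 and those of neural cells to 80.1 to 94.3 CPM with 4 of 6. Long reads numbered 3080426 (control) and 1874851 (knockdown).

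*Araf* was the member whose introns, spliced reads and long-read transcripts differed most between the groups, and its exon junctions are shown first. They are from the GENCODE M21 transcripts, written 5′ to 3′. The lines named Araf-201 show spliced junctions of the full-length transcript, with the downstream exon in capitals. Those of introns 5, 9, 12 and 15 belong to the 4 introns that were called in the splicing test below, and that of exons 6 and 7 removes intron 6. The last line is the transcript Araf-202, which runs on from exon 6 into intron 6 (capitals).
Araf-201 exon 5/exon 6: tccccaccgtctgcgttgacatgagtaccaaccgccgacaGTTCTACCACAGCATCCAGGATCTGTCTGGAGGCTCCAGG
Araf-201 exon 6/exon 7: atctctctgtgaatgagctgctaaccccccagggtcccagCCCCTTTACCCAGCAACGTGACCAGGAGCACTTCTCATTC
Araf-201 exon 9/exon 10: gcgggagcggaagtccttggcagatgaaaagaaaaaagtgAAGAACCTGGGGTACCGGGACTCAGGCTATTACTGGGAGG
Araf-201 exon 12/exon 13: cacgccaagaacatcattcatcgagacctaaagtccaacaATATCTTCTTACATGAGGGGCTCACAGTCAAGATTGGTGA
Araf-201 exon 15/exon 16: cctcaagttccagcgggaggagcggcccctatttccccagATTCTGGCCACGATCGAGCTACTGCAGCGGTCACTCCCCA
Araf-202 exon 6 into intron 6: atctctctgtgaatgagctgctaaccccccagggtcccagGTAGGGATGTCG

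Both forms share the 40 bases before the end of exon 6. In Araf-201, of 16 exons and 2358 nt, the reading frame goes on into exon 7 and holds 604 codons. In Araf-202, of 6 exons and 1520 nt, 1 base of intron 6 completes the last codon and the next 3 bases are the stop codon TAG, so the frame holds 186 codons. Araf-202 takes 861 nt of intron 6 into its last exon. The letters AATAAA, the common polyadenylation signal, start 17 nt from its end on the transcript strand, and 40.6% of the 58787 protein-coding M21 transcripts hold these letters in their last 50 nt. Short ARAF proteins that end in intron 6 are known as DA-RAF: they keep the RAS-binding domain, lack the kinase domain and act as inhibitors of the pathway.

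The spliced level of each gene was taken from its introns listed in all 4 libraries. It is the CPM of split reads at their 5′ junctions divided by the number of these introns, which does not depend on gene length. In the controls *Map2k2* stood at 16.5 ± 1.8, *Mapk3* at 16 ± 2.7, *Map2k1* at 16 ± 0.36, *Braf* at 9.06 ± 0.53, *Araf* at 7.38 ± 0.24 and *Ksr1* at 2.48 ± 0.59 (SD, n = 2 each). The first 3 of this order did not differ beyond their spread, while *Braf*, *Araf* and *Ksr1* each lay below the gene before it in both libraries. In the knockdown *Map2k1* stood at 16.3 ± 1.1, *Mapk3* at 12.9 ± 3.5, *Map2k2* at 12.6 ± 0.26, *Braf* at 9.34 ± 0.23, *Ksr1* at 3.18 ± 0.66 and *Araf* at 2.62 ± 0.19. *Araf* was thus last in the knockdown, where its libraries (2.48 and 2.75) overlapped those of *Ksr1* (2.71 and 3.64). Without an intron with hardly any split 5′ reads, numbered in Araf-207 and described below, *Araf* stood at 8.15 ± 0.31 in the controls and 2.91 ± 0.21 in the knockdown, with the same place in both orders. In these bulk samples, fewer cells expressing a gene and less RNA per cell cannot be told apart.

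*Araf* (ENSMUSG00000001127, chromosome X), a RAF kinase, had a lower splicing efficiency in the knockdown in most of its listed introns. Araf-201 has 15 introns, and the gene had 11 listed introns, with the one numbered in Araf-207 among them. The introns that were not listed have no value here. Splicing efficiency is the share of split (spliced) reads among all reads that cross the junctions of an intron. Over the 10 *Araf* introns listed in all libraries it was 0.878 and 0.876 in the controls, against 0.660 and 0.677 in the knockdown, or 0.877 ± 0.0016 and 0.668 ± 0.012 (SD, n = 2 each). The 2 groups lay far apart compared with the distance between their libraries. The log2 odds ratio of unsplit against split reads was 1.83 (standard error 0.263), where positive values stand for a larger unsplit proportion under knockdown. *Araf* was the 1 member of 6 called lower per gene (edgeR quasi-likelihood test, Benjamini-Hochberg adjusted p under 0.05), where 6.98% of 9370 genes were called lower and 0.128% higher. Over all genes, 654 were lower and 12 higher, and 643 lower and 99 higher when split and unsplit reads were scaled separately. With that scaling the median over all genes went from 0.09 to -0.05 (log2 odds ratio), and *Araf* to 1.69. Limma, which called 0 of the 9370 genes lower, did not call *Araf*, with a log2 odds ratio of 1.82.

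Among the 9 tested *Araf* introns, 8 had both knockdown libraries below both controls, 0 had both above, and 4 were called lower. These 4 were the only calls among the 36 tested introns of the 6 genes. Over all tested introns, 1.71% were called lower, 0.0442% were called higher, and 24.3% had both knockdown libraries below both controls. The median log2 odds ratio of the 9 introns was 1.84, with a range of 0.41 to 2.54, beside 0.12 over all tested introns. The listed *Araf* introns were short, with a median of 117 nt and a range of 89 to 811 nt, beside a median of 1128 nt over all tested introns. Among introns of up to 500 nt, 5.02% of 18529 were called lower.

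The 4 called introns all lie within the coding sequence, and positions are on GRCm39. Intron 5 (chromosome X, 20718052 to 20718168, 117 nt) had the largest fall in mean efficiency of the 6 genes' called introns. Its efficiency was 0.744 and 0.667 in the controls, against 0.382 and 0.324 in the knockdown, with a log2 odds ratio of 2.15 (standard error 0.496). Unsplit reads were thus the majority in both knockdown libraries, with 224 unsplit against 125 split reads in all, while the controls held 116 unsplit against 295 split reads. Intron 9 (20720056 to 20720151, 96 nt) had an efficiency of 0.912 and 0.893 in the controls and of 0.606 and 0.622 in the knockdown. The efficiency of intron 12 (20724164 to 20724632, 469 nt) was 0.960 and 0.972 in the controls, against 0.839 and 0.874 in the knockdown. For intron 15 (20726059 to 20726217, 159 nt), the last of Araf-201, the values were 0.922 and 0.925 in the controls, against 0.780 and 0.685 in the knockdown. In each of these introns the higher knockdown library lay below the lower control. Their log2 odds ratios were 2.54 (standard error 0.744) for intron 9, 2.25 (0.594) for intron 12 and 2.07 (0.571) for intron 15.

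The calls of the 4 introns depended on the tool and on single libraries, while their log2 odds ratios lay between 1.77 and 3.08 in all alternatives that could test them. DESeq2, limma, the 5′ junction alone and the 3′ junction alone each called 0 of them. Over all tested introns they also called fewer lower than the 1084 of 63309 in the main fit. DESeq2 called 275 and limma 0 of 63309, the 5′ junction alone 231 of 50021 and the 3′ junction alone 319 of 52435. Without control replicate 1 the log2 odds ratios of introns 5, 9, 12 and 15 were 1.87, 2.37, 2.56 and 2.11. At an unadjusted p under 0.05, edgeR counted 10 of the 36 introns as lower and 0 as higher, DESeq2 7 and 0, and limma 9 and 0. Of the 10 in edgeR, 2 were in members other than *Araf*. Counts at this unadjusted threshold, here and below, were not taken over all introns or genes. Whether they are unusual can therefore not be told. Without control replicate 2 intron 5 was called, without knockdown replicate 1 introns 5 and 15, and without knockdown replicate 2 introns 5 and 12.

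The other *Araf* introns moved by different amounts. Intron 7 (100 nt) had efficiencies of 0.803 and 0.804 in the controls against 0.556 and 0.667 in the knockdown. Intron 13 (20724752 to 20724980, 229 nt), with the most junction reads of the gene, had 0.882 and 0.887 against 0.714 and 0.761. Intron 14 (811 nt) had 0.885 and 0.917 against 0.606 and 0.829. In these 3 introns the groups did not overlap, but the difference was not called. Intron 11 of Araf-201 (89 nt) was spliced almost fully in every library, at 0.991 and 1.000 in the controls, against 0.953 and 0.976 in the knockdown, and had too few unsplit reads for the test. An intron of 89 nt upstream of it, which is intron 11 of Araf-207, an isoform annotated as a target of nonsense-mediated decay, had efficiencies of 0.624 and 0.544 in the controls, against 0.366 and 0.259 in the knockdown. Its split reads lay almost all at the 3′ junction, with 91 and 60 in the controls, against 26 and 15 in the knockdown. At the 5′ junction they numbered 12 and 2, against 0 in both knockdown libraries. These values therefore do not measure how often that intron itself was spliced. Without it the efficiency of the gene was 0.895 and 0.898 in the controls, against 0.680 and 0.708 in the knockdown, with a log2 odds ratio of 1.94 (standard error 0.268), and was still called. Of the 8 tested introns that are left, 7 had both knockdown libraries below both controls and 4 were called. Intron 2 (162 nt) was the 1 tested intron of the gene whose groups overlapped, at 0.854 and 0.787 against 0.805 and 0.750. Intron 8 (89 nt) was listed in 3 libraries, at 0.859 and 0.880 in the controls and 0.524 in knockdown replicate 1.

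The spliced reads of *Araf* fell. It had 1123 and 787 spliced reads in the controls, against 362 and 285 in the knockdown, or 73.8 ± 2.4 and 26.2 ± 1.9 CPM (SD, n = 2 each). This is a log2 fold change of -1.52 (standard error 0.118). *Araf* and *Map2k2* were the 2 members of 6 called for fewer spliced reads, and 0 members were called for more. Of all 9474 genes, 6.76% had fewer by this call and 1.96% more. *Araf* was called in each of the 11 alternatives, with a log2 fold change between -1.79 and -1.44. Its unsplit reads did not fall with the split ones: on the same scale, unsplit reads of both junctions stood at 20.5 and 21.9 CPM (controls) and at 26.4 and 26.3 CPM (knockdown).

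The fall was uneven along the gene. Split reads at intron 2 were 4.49 and 3.55 CPM (controls) and 4.53 and 4.63 CPM (knockdown), with no loss. At intron 5 they were 6.48 and 4.70 against 2.81 and 2.32. At intron 12, within the later part of the gene, they were 11.6 and 13.8 against 3.50 and 4.54. Intron 6 (1289 nt), into which Araf-202 runs, was not in the tables. Split reads were therefore averaged over the introns before it (introns 2 and 5) and after it (introns 7, 9 and 11 to 15), a division chosen after the values were seen. Before intron 6 the mean was 5.49 and 4.12 CPM in the controls, against 3.67 and 3.47 in the knockdown, a ratio of 0.743. After intron 6 it was 8.62 and 9.58 in the controls, against 2.50 and 2.94 in the knockdown, a ratio of 0.299. Unsplit reads of both junctions averaged 3.02 and 3.17 CPM before intron 6 in the controls, against 5.49 and 6.18 in the knockdown. After intron 6 they averaged 1.5 and 1.51 CPM, against 1.76 and 1.41, with overlapping groups. The lower efficiency after intron 6 thus came with fewer split reads, without a clear rise of unsplit ones. Spliced reads before intron 6 were fewer than those after it in both controls, with ratios of 0.637 and 0.431, and more in both knockdown libraries, with ratios of 1.47 and 1.18. The part before intron 6 rests on only 2 introns, and the difference between both parts was not tested.

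**Figure D1:**
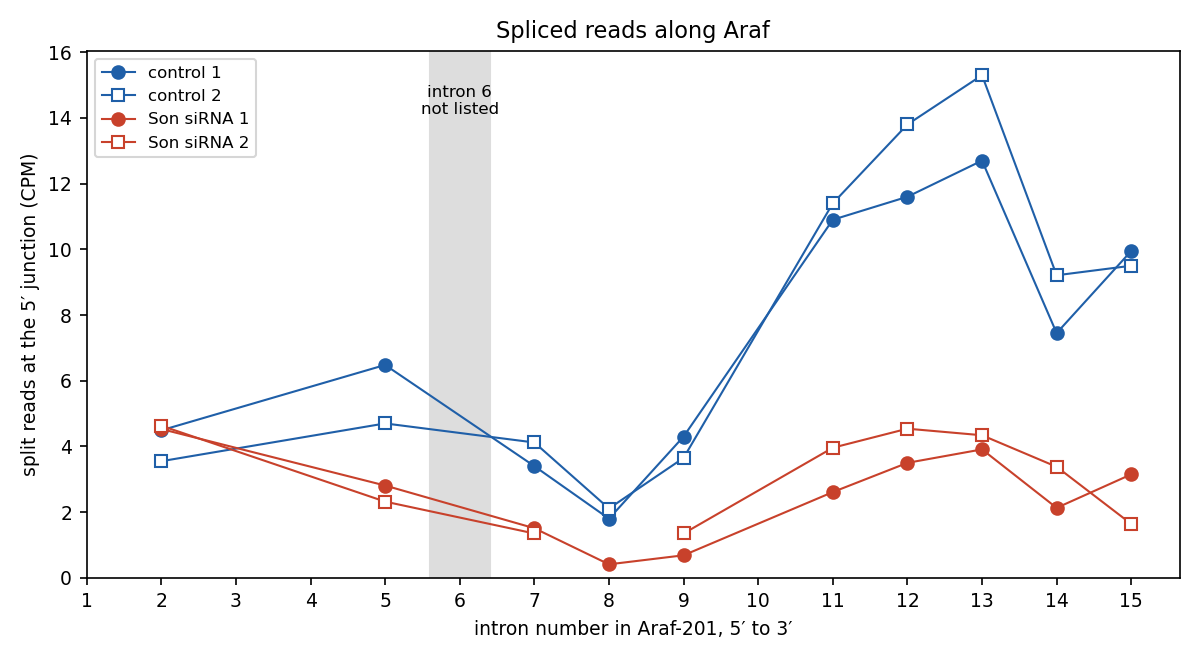
Split reads at the 5′ junction of each listed *Araf* intron in CPM (y axis), by intron number in Araf-201 (x axis), with 1 line per total RNA library and intron 6, which the tables do not list, in grey. At intron 5 and from intron 7 onward every knockdown point lies below both controls, and at intron 2 the libraries lie between 3.55 and 4.63.

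In the long reads the total for *Araf* was similar in both libraries, while its transcripts differed. The gene had 102 control and 67 knockdown reads. On the counts-per-million scale of long reads these are 33.1 CPM (95% Wilson interval 27.3 to 40.2) and 35.7 CPM (28.1 to 45.4). The full-length Araf-201 had 49 and 10 reads, or 15.9 CPM (12 to 21) and 5.33 CPM (2.90 to 9.82), a log2 ratio of -1.52. Araf-202, the short form shown above, had 11 and 29 reads, or 3.57 CPM (1.99 to 6.39) and 15.5 CPM (10.8 to 22.2), a log2 ratio of 2.08. Araf-203, of 5 exons and 2854 nt, which also ends in intron 6 and has a coding sequence of the same length of 558 nt, had 12 and 19 reads and a log2 ratio of 1.36. The intervals of both libraries did not overlap for Araf-201 and Araf-202 and overlapped for Araf-203. With 1 long-read library for each siRNA these values have no replicate check, and the intervals cover counting error only. The long-read control is described as made from knockdown RNA, so its group rests on its title.

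Of all *Araf* long reads, 26 of 102 were on transcripts that end in intron 6 in the control library, a share of 25.5% (95% Wilson interval 18 to 34.7). In the knockdown library they were 48 of 67, or 71.6% (59.9 to 81.0). Transcripts that end in the last exon of the gene held 65.7% (56.1 to 74.2) of the control reads and 23.9% (15.3 to 35.3) of the knockdown reads. The intervals were apart for both classes. Besides Araf-201, the last-exon class held Araf-207, annotated as a target of nonsense-mediated decay (13 and 5 reads), and Araf-206 (5 and 1). Besides Araf-202 and Araf-203, the intron 6 class held Araf-205, annotated as a retained-intron transcript (3 and 0). Araf-210 (6 and 3) and Araf-208 (3 and 0) end in intron 10 and are in neither class. Left out of both counts, Araf-203 lowered the share ending in intron 6 to 15.6% (9.5 to 24.4) in the control and 60.4% (46.3 to 73.0) in the knockdown library. How long reads were assigned to transcripts is not given in the sources used here.

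**Figure D2:**
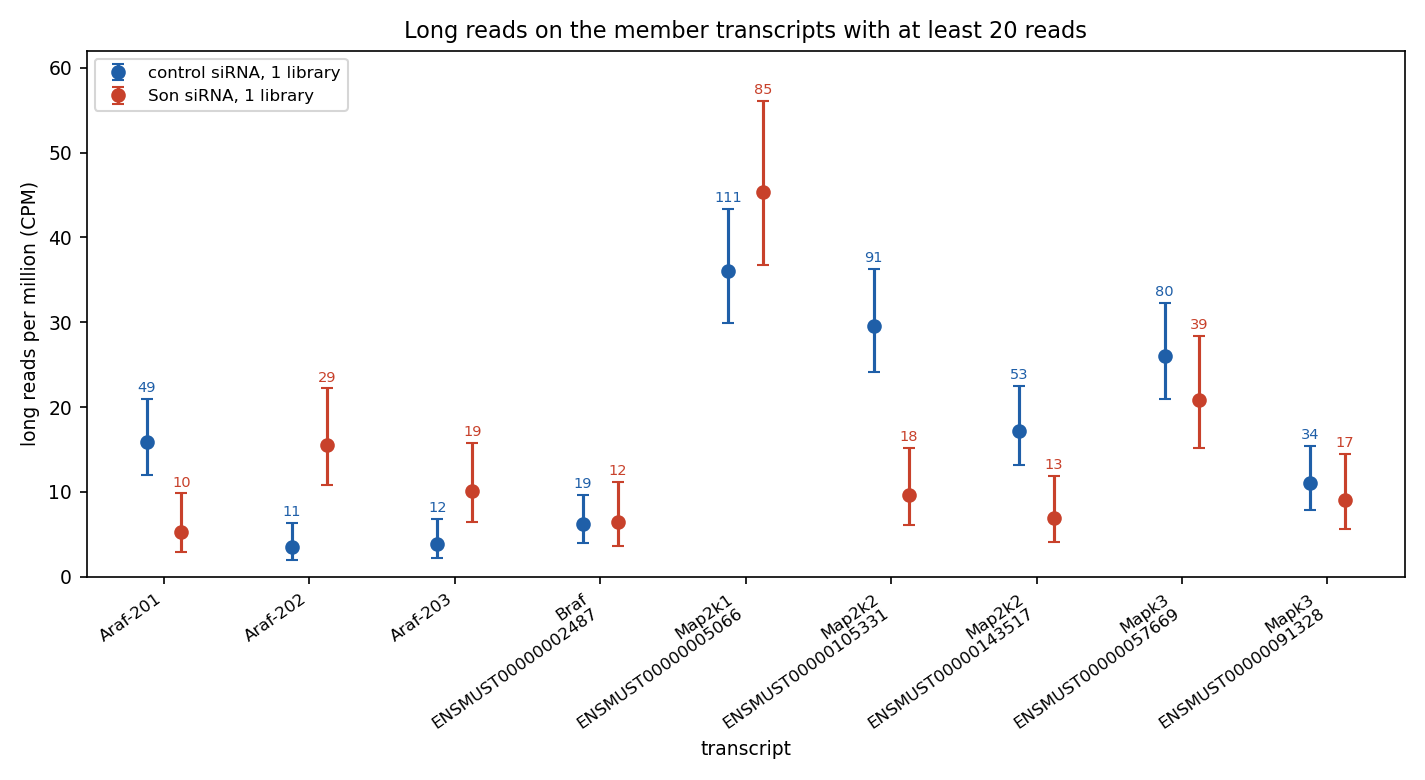
Long reads in CPM (y axis) for the 9 member transcripts with at least 20 reads over both libraries (x axis), with 95% Wilson intervals and the number of reads above each point, control in blue and knockdown in red, 1 library each. Araf-201 and both *Map2k2* transcripts are lower in the knockdown library, and Araf-202 is higher, with 29 against 11 reads.

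*Braf* (ENSMUSG00000002413, chromosome 6), the RAF kinase with the strongest activity towards MEK, kept its spliced reads. It had 1323 and 815 in the controls, against 1247 and 856 in the knockdown, a log2 fold change of 0.02 (standard error 0.098). Over 9 introns its splicing efficiency was 0.939 and 0.938 in the controls, against 0.932 and 0.912 in the knockdown, and it was not called (log2 odds ratio 0.35, standard error 0.266). Intron 5 (39642041 to 39643179, 1139 nt) had the largest difference of the gene, at 0.874 and 0.876 in the controls against 0.822 and 0.728 in the knockdown. Its libraries did not overlap, and the intron was not called. Intron 6 (39639087 to 39641937, 2851 nt), the best covered one, had 0.976 and 0.931 against 0.976 and 0.925, with the groups overlapping. Of the 9 tested introns, 3 had both knockdown libraries below both controls and 1 had both above, beside 24.3% and 13.1% of all tested introns. In the long reads its transcript Braf-201, of 9728 nt, had 19 control and 12 knockdown reads, or 6.17 CPM (3.95 to 9.63) and 6.4 CPM (3.66 to 11.2), with overlapping intervals.

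*Ksr1* (ENSMUSG00000018334, chromosome 11), the scaffold, had the fewest reads of the 6 genes and the widest errors. Its spliced reads were 361 and 172 in the controls, against 316 and 302 in the knockdown, or 19.8 ± 4.7 and 25.4 ± 5.3 CPM (SD, n = 2 each). The log2 fold change of 0.31 (standard error 0.18) was not called, and without knockdown replicate 1 it was 0.52 and was called with more. Splicing efficiency was 0.956 and 0.925 in the controls, against 0.931 and 0.945 in the knockdown, with overlapping groups. Its log2 odds ratio was 0.14 (standard error 0.386). Of 10 listed introns 4 could be tested, and 0 of them had both knockdown libraries below both controls. Among introns with at least 50 junction reads in every library, intron 3 (78936095 to 78938122, 2028 nt) fell most in mean efficiency, at 0.912 and 0.787 in the controls and 0.817 in both knockdown libraries. The best covered intron, intron 6 (78929062 to 78931702, 2641 nt), had 0.953 and 0.943 in the controls, against 0.964 and 0.961 in the knockdown. In the long reads the gene had 7 and 3 reads, too few for a ratio.

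*Map2k1* (ENSMUSG00000004936, chromosome 9), coding for MEK1, was the member with the smallest change in spliced reads. It had 1517 and 983 in the controls, against 1497 and 968 in the knockdown, or 95.8 ± 2.2 and 98.0 ± 6.5 CPM (SD, n = 2 each), with a log2 fold change of 0.01 (standard error 0.0944). Its splicing efficiency was 0.939 and 0.933 against 0.938 and 0.919, with overlapping groups and a log2 odds ratio of 0.15 (standard error 0.259). Intron 6 (64098937 to 64100983, 2047 nt), with the most junction reads, was at 0.978 and 0.984 in the controls, against 0.987 and 0.982 in the knockdown. Intron 3 (64112471 to 64119865, 7395 nt) had the largest difference, at 0.947 and 0.895 against 0.893 and 0.862, and was not called. Intron 1 (38603 nt) stood apart in all libraries, at 0.626 and 0.670 in the controls, against 0.600 and 0.629 in the knockdown. It overlaps *Uchl4*, *Gm24106* and *Gm48855* on the opposite strand, and since strand-specific counting is not stated, reads from these genes cannot be told apart from its own. In the long reads its transcript ENSMUST00000005066 had 111 and 85 reads, or 36.0 CPM (29.9 to 43.4) and 45.3 CPM (36.7 to 56.1), with overlapping intervals.

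*Map2k2* (ENSMUSG00000035027, chromosome 10), coding for MEK2, had fewer spliced reads in the knockdown. It had 1416 and 1111 in the controls, against 1117 and 771 in the knockdown, or 98.7 ± 11 and 75.5 ± 1.5 CPM (SD, n = 2 each). The groups did not overlap. The log2 fold change was -0.40 (standard error 0.102) and was called, but without control replicate 2 it was -0.29 and was not. From its best covered intron alone it was -0.42 and was not called either. Splicing efficiency was 0.967 and 0.965 in the controls, against 0.95 and 0.94 in the knockdown, a small difference with no overlap. Its log2 odds ratio of 0.72 (standard error 0.281) was not called.

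Of the 5 tested *Map2k2* introns, 4 had both knockdown libraries below both controls and 0 had both above, where 24.3% and 13.1% of all tested introns did so. Intron 10 (80958447 to 80959453, 1007 nt), the last one, had the largest difference, at 0.944 and 0.959 in the controls, against 0.927 and 0.836 in the knockdown. Its log2 odds ratio of 1.27 (standard error 0.526) was not called with all libraries, and was called without knockdown replicate 1, at 1.92. The best covered intron, intron 6 (80955216 to 80955323), is only 108 nt long, and it was spliced almost fully, at 0.984 and 0.979 against 0.968 and 0.984. The short intron 5 (96 nt) had 0.939 and 0.960 against 0.923 and 0.927.

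The long reads of *Map2k2* differed more between their libraries than its spliced reads did. The gene had 158 control and 37 knockdown reads, or 51.3 CPM (43.9 to 59.9) and 19.7 CPM (14.3 to 27.2), a log2 ratio of -1.36. Its main transcript, ENSMUST00000105331, had 91 and 18 reads, or 29.5 CPM (24.1 to 36.3) and 9.60 CPM (6.07 to 15.2), a log2 ratio of -1.59. ENSMUST00000143517, with 1203 coding nt beside 1200 in the main one, had 53 and 13 reads and a log2 ratio of -1.27. *Map2k2* was the 1 member gene of 5 with enough reads that was at least 2-fold lower, and 0 were at least 2-fold higher, where 4.16% of 9618 genes were lower and 2.2% higher by that rule. Of the 9 member transcripts with at least 20 long reads, 3 were at least 2-fold lower (Araf-201 and both *Map2k2* transcripts) and 2 were at least 2-fold higher (Araf-202 and Araf-203), where 5.8% of 13807 transcripts were lower and 3.32% higher. With a pseudocount of 5 reads in place of 0.5, ENSMUST00000143517 no longer passed.

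*Mapk3* (ENSMUSG00000063065, chromosome 7), coding for ERK1, had 836 and 439 spliced reads in the controls, against 673 and 326 in the knockdown. These were 53.7 and 42.1 CPM against 46.1 and 31.5 CPM, so the groups overlapped. The log2 fold change of -0.32 (standard error 0.153) was not called. It was -0.63 and was called without knockdown replicate 1, and was -0.09 without knockdown replicate 2. Splicing efficiency was 0.984 and 0.965 in the controls, against 0.966 and 0.948 in the knockdown, again with overlap, and its log2 odds ratio of 0.83 (standard error 0.359) was called only from the 5′ junction alone, at 1.34. Intron 6 (126363538 to 126363705, 168 nt), the best covered, was at 0.994 and 0.995 in the controls, against 0.984 and 0.986 in the knockdown. Intron 8 (126364050 to 126364411, 362 nt), which lies outside the coding sequence, was at 0.983 and 0.949 against 0.952 and 0.912. Neither was called. In the long reads ENSMUST00000057669 had 80 and 39 reads and ENSMUST00000091328, a form with 8 exons in place of 9 and a shorter coding sequence of 795 nt beside 1140 nt, had 34 and 17. Their log2 ratios of -0.31 and -0.26 had overlapping intervals.

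Together the 5 members other than *Araf* had 27 tested introns. Of these, 9 had both knockdown libraries below both controls, 3 had both above and 15 overlapped. These are 33.3% and 11.1% of them, beside 24.3% and 13.1% of all tested introns. By edgeR, DESeq2 or limma 0 were called, where edgeR called 1.71% of all tested introns lower. At an unadjusted p under 0.05, edgeR counted 2 of them as lower, DESeq2 0 and limma 1.

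Annotated retained-intron transcripts made up a small part of the members' long reads in both libraries. They held 4.68% (95% Wilson interval 3.19 to 6.82) of 534 reads in the control library and 2.99% (1.52 to 5.78) of 268 in the knockdown library, beside 6.24% and 6.64% over all annotated transcripts. In *Araf*, whose splicing efficiency per gene was the lowest in total RNA, they held 9 of 102 and 3 of 67 reads. These were on Araf-205, which ends in intron 6, and Araf-210, which ends in intron 10. Counts per annotated transcript cannot show an intron kept in RNA without such a transcript, so retention of single introns was not measured here. *Map2k2* had 10 of 158 and 4 of 37. The intervals of both libraries overlapped for the 6 genes together, at 8.82% (4.71 to 15.9) and 4.48% (1.53 to 12.4) for *Araf*, and at 6.33% (3.47 to 11.3) and 10.8% (4.29 to 24.7) for *Map2k2*.

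Another 100 genes of the pathway were read from 5 lists, of which 84 could be tested for splicing efficiency and 83 for spliced reads. In all, 6 were called lower in splicing efficiency and 0 higher, while 6 had fewer spliced reads and 1 had more by the same test (edgeR quasi-likelihood test, Benjamini-Hochberg adjusted). These shares lie near those over all genes, which are 6.98% lower and 0.128% higher in splicing, and 6.76% with fewer and 1.96% with more spliced reads. The median log2 values were 0.05 for splicing and -0.02 for spliced reads, beside 0.09 and 0.01 over all genes tested. At an unadjusted p under 0.05, edgeR counted 12 as lower and 0 as higher in splicing, and 11 with fewer and 4 with more spliced reads. The same counts over all genes were not taken. DESeq2 called 5 lower in splicing and 4 with fewer spliced reads, and 0 in the other directions.

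Among the other kinases of the same tiers, 0 of 6 tested genes were called in either measure, in edgeR or DESeq2. Of the receptors, adaptors and RAS genes, 0 of 15 were called in either measure, in edgeR or DESeq2. For so few genes both counts lie near the shares over all genes, 6.98% lower in splicing and 6.76% with fewer spliced reads. In splicing, edgeR with a replicate block called 2 of the 15 lower, and with separate scaling 1 lower and 1 higher.

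The scaffolds and activity regulators had 1 of 27 genes lower in splicing and 2 of 26 with fewer spliced reads, beside 6.98% and 6.76% of all genes. *Lztr1*, an adaptor of a ubiquitin ligase that limits RAS, had splicing efficiencies of 0.920 and 0.928 in the controls, against 0.817 and 0.808 in the knockdown (log2 odds ratio 1.48, edgeR adjusted p = 3.9e-05). Its spliced reads fell by 0.48 on the log2 scale (edgeR adjusted p = 0.0223). *Wdr83*, a scaffold of the ERK module, had fewer spliced reads (log2 fold change -0.77, edgeR adjusted p = 0.0334), from 146 and 100 to 78 and 62. Of the inhibitors of RAS and ERK, 1 of 12 was lower in splicing and had fewer spliced reads, beside the same 6.98% and 6.76%. It was *Ptpn6*, the tyrosine phosphatase SHP-1, with splicing efficiencies of 0.959 and 0.951 against 0.867 and 0.823 (log2 odds ratio 1.95, edgeR adjusted p = 6e-06) and spliced reads at -1.06 on the log2 scale (edgeR adjusted p = 0.000129).

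The substrates and early targets of ERK had 4 of 24 genes lower in splicing, 3 with fewer and 1 with more spliced reads, beside 6.98%, 6.76% and 1.96% of all genes. *Mknk2*, a kinase that ERK activates, fell in both measures, with a log2 odds ratio of 0.80 (edgeR adjusted p = 0.0223) for splicing and a log2 change in spliced reads of -0.44 (edgeR adjusted p = 0.00356). So did *Erf* and *Cic*, repressors of transcription that ERK signalling switches off, with log2 odds ratios of 1.00 and 0.78 and log2 fold changes of -0.33 each. *Etv4* was lower in splicing (0.74) with a log2 fold change in spliced reads of -0.04, and *Etv5* had more spliced reads (0.24). Both are ETS transcription factors that ERK signalling induces. Without control replicate 1, *Lztr1* and *Ptpn6* were the 2 of the 100 genes called lower in splicing and *Ptpn6* the 1 called for fewer spliced reads. Without control replicate 2 the splicing calls were *Erf*, *Lztr1* and *Ptpn6*, and those of fewer spliced reads were *Mknk2* and *Ptpn6*. Without knockdown replicate 2 the splicing calls were *Lztr1*, *Ptpn6* and *Wdr83*. The rise of *Etv5* was not called without either control, and without knockdown replicate 1 there were 11 genes called with fewer and 6 with more spliced reads.

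**Figure D3:**
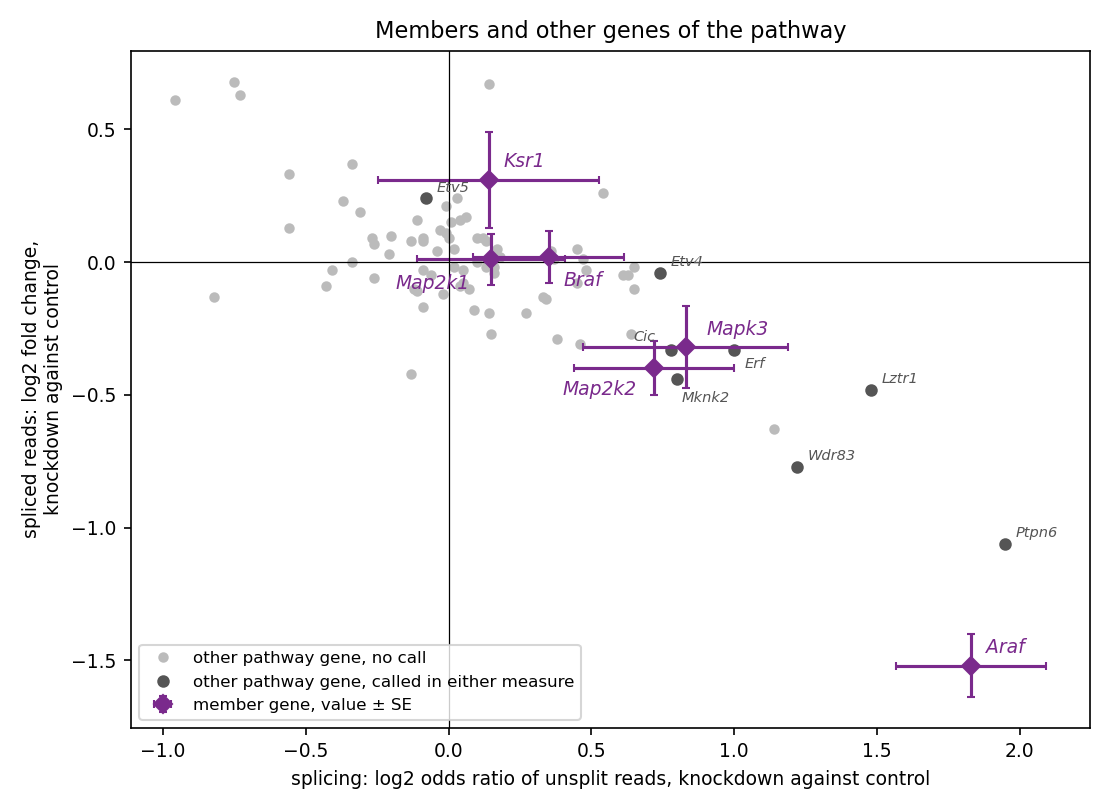
Log2 fold change of spliced reads (y axis) against the log2 odds ratio of unsplit reads per gene (x axis), knockdown against control, for the 6 members (diamonds, with standard errors) and the other tested genes of the pathway (circles, dark where called in either measure). *Araf* lies at 1.83 and -1.52, and *Ptpn6*, at 1.95 and -1.06, is the nearest of the called genes.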

How the data were processed

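Total RNA of 4 samples and long-read cDNA of 2 were analysed, grouped by the treatment in the labels. The authors deposited SPLICE-q tables of total RNA, per the labels: for every intron, counts of reads that cross its 5′ and 3′ junctions split or unsplit, and a score. The deposited score is a fraction from 0 to 1 and was checked to equal the share of split reads. No listed junction had under 10 reads. For long reads the authors deposited counts per transcript. Per the submitters' processing notes, SAMtools, minimap2 and GRCm39 were used, in roles that are not given there. Both long-read samples, the control too, are described as made from 1 knockdown sample of total RNA, so no pairing between assays was used. Their groups were taken from their titles, which this description contradicts for the control. The level of *Son* in the long reads is not given here, so the long-read groups were not checked by it.

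Introns repeated for several transcripts were counted once. Names, types and sequences of transcripts were looked up in GENCODE M21 by identifier, and intron lengths, but not positions, were compared with it. All 30 member transcripts had the same length in it. For splicing efficiency, split and unsplit reads of both junctions were summed, so a spanning read counts at both, and fitted in R 4.3.3 with edgeR 4.0.16 (quasi-likelihood). Terms were the libraries, unsplit reads, and unsplit reads in the knockdown, the last being tested. An intron needed 10 split and 10 unsplit reads, each summed over the libraries. The spliced reads of a gene are the split 5′ junction reads of its introns listed in all 4 libraries, and were fitted with edgeR, TMM and filterByExpr. All fits used the whole table, with Benjamini-Hochberg adjustment over it and a threshold of 0.05. The edgeR fits of splicing per intron and of spliced reads were also run on simulated data. The fit of splicing per gene and the alternatives were not. DESeq2 1.42.0 and limma 3.58.1 were alternatives.

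Long reads are given in CPM of the library total, with 95% Wilson intervals (scipy 1.17.1). Log2 ratios used a pseudocount of 0.5 reads and needed 20 reads over both libraries. The labels do not say that replicates were separate cultures, so p-values measure the spread between these samples, which may be technical.

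*Morg1*, a listed name of *Wdr83*, was counted once as *Wdr83*. The members, the 5 pathway lists and the tests were chosen with earlier results of these data known. The introns named are those called, and in each gene the best covered one and the one with the largest fall in efficiency among introns with at least 50 junction reads in every library. The other *Araf* introns, intron 1 of *Map2k1* and intron 5 of *Map2k2* were added after their values were seen. Pathway genes named are those called in either measure. Some pathway genes are not reported here. Transcripts named have at least 20 long reads, and the rarer *Araf* ones were added to account for its reads.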

Additional observations from a re-analysis of the deposited data

How the results depend on the processing

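The number of member introns called lower (4 in all) was 0 from the 5′ junction alone, the 3′ junction alone, DESeq2 and limma, and 0 to 3 with 1 library left out. Over all introns DESeq2 called 275 and limma 0 of 63309 lower. At an unadjusted p under 0.05, DESeq2 counted 7 and limma 9 of 36. Of the 6 genes, 2 were called lower in splicing from the 5′ junction alone (*Araf* and *Mapk3*), beside 492 of all 8757 genes tested there. Limma called 0 of the 6 genes and 0 of all 9370 genes, and 2 of the 6 had an unadjusted p under 0.05. Spliced reads were called fewer in 1 gene (*Araf*) from the best covered intron alone, where the share over all genes is not given here. With 1 library left out, the log2 fold change lay between -1.6 and -1.44 for *Araf* and between -0.52 and -0.29 for *Map2k2*. It lay between -0.63 and -0.09 for *Mapk3* and between 0.08 and 0.59 for *Ksr1*. For the 100 pathway genes, limma called 0 lower in splicing, with 6 at an unadjusted p under 0.05, and separate scaling called 1 higher (*Gab1*). Leaving out 1 library gave 2 to 6 lower. Called with more spliced reads were 0 in DESeq2 and 0 from the best covered intron, which also called 2 with fewer. Leaving out 1 library gave 0 to 6 with more and 1 to 11 with fewer. The cause of these shifts was not tested.

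The deviations of same-numbered libraries from their group means correlated at 0.0245 for spliced reads and 0.0454 for splicing over 8893 genes. This correlation cannot show a shift shared by all genes, so whether replicate numbers pair the samples was not settled. A replicate block called 2 members lower in splicing (*Araf* and *Map2k2*, the latter at 0.72) and 11 pathway genes lower, against 1 and 6 without it. It called 5 member introns, against 4. Over all genes it called 965 lower in splicing, against 654, and over all introns 1580, against 1084.

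With processed and nonsense-mediated decay transcripts counted in, the retained-intron share was 8.61% (control) and 5.6% (knockdown). Among protein-coding transcripts only, the share of *Araf* long reads ending in intron 6 was 29.9% in the control and 81.4% in the knockdown library. Without Araf-203 it was 15.6% in the control and 60.4% in the knockdown library. These settings, and *Araf* without its intron numbered in Araf-207, which changed no call, were chosen after the data were seen. Depth limits *Ksr1* most, with 4 of 10 introns tested and 10 long reads in all, and the long reads hold 1 library per group.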
